A study of Mus musculus with 4 samples.

Results

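A run of neighbouring genes on mouse chromosome 5 was read at higher levels in 3 Morc3 rescue clones than in the wild-type embryonic stem (ES) cells from which the clones derive. It holds 10 named genes, *Sppl3*, *Unc119b*, *Mlec*, *Rnf10*, *Coq5*, *Dynll1*, *Srsf9*, *Triap1*, *Pxn* and *Rab35*, out of 24054 genes in the count tables. They were selected by symbol because they lie in 1 gene-dense stretch and were higher in all 3 clones, so their ratios to wild type are given as a description and without a p-value. The choice did not test the clones against each other. Asking each clone to be above wild type still favours genes on which the clones agree. Values of the other genes of the stretch, of the genes on either side and of relatives outside the stretch are set beside the 10 genes.

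The study asked how Morc3, an ATPase of the MORC family, keeps endogenous retroviruses silent in mouse ES cells. The wild-type cells are the line wt26 (1 library, genotype wild type). The Morc3 rescue clones are T131-3C, T131-3D and T131-3M, called 3C, 3D and 3M here, with 1 library each. Each was picked as a single clone after wild-type Morc3 cDNA, driven by a human PGK promoter on a PiggyBac transposon with a puromycin marker, was put into 1 Morc3 ko clone of wt26 named KO27-2. All 3 therefore share that ko clone, its selection and its time in culture, none of which wt26 went through, and the genotype and this history cannot be told apart. All cells grew without feeders in serum and LIF, and total RNA was depleted of ribosomal RNA and sequenced in a strand-specific way. With 1 wild-type library, every ratio shares the error of that library, and in bulk RNA a larger share of cells with a transcript cannot be told apart from more transcript per cell.

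Between 13620914 and 15479190 read pairs per clone and 18789457 in wild type were counted on genes. The wild-type library stood apart in this respect, with 52.7% of its read pairs on genes and 14.5% unmapped, against between 45.1% and 47.0% on genes and between 21.0% and 23.0% unmapped in the clones, and the part of this in the ratios was not tested. *Morc3* itself read 161 CPM (counts scaled to a common library size, with factors from the trimmed mean of M values, TMM) in wild type and 655, 497 and 609 CPM in 3C, 3D and 3M, so each clone stood above wild type. The 8 ES cell markers, among them *Pou5f1*, *Sox2* and *Nanog*, summed to 3820 CPM in wild type and to between 3879 and 3973 CPM in the clones, and none was at 0. Single markers were less level than the sum. *Nanog* read 300 CPM in wild type and 468, 358 and 481 CPM in 3C, 3D and 3M. *Pou5f1* read 766 CPM and 698, 756 and 720 CPM, and *Klf4* 209 CPM and 180, 247 and 152 CPM. The 8 markers of differentiated cells summed to 45.0 CPM in wild type and to between 42.6 and 67.7 CPM in the clones, with 1 or 2 at 0 in each library, and the 6 markers of fibroblast feeders to 37.3 CPM and to between 25.6 and 50.3 CPM, with 2 or 3 at 0. In wild type, *Nes* alone read 38.4 CPM of the differentiation sum and *Thy1* alone 31.7 CPM of the feeder sum. The part of all these markers in the differences described here was not tested. Chromosomes 13 and 14 also stood apart from the other genes, with median log2 ratios to wild type over 512 tested genes of chromosome 13 of 0.48, 0.03 and 0.48 in 3C, 3D and 3M, and over 464 of chromosome 14 of 0.34, 0.34 and 0.35.

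The genes belong to unrelated families. Mammalian genomes pack housekeeping genes of different function into dense stretches, often with promoters rich in CpG and with pairs of genes that start back to back from one shared promoter. *Sppl3* encodes an intramembrane protease that sheds glycosyltransferases in the Golgi, *Mlec* the lectin malectin of the endoplasmic reticulum, *Unc119b* a chaperone for lipid-modified cargo of the primary cilium and *Rab35* a small GTPase of endocytic recycling. *Coq5* encodes a methyltransferase of coenzyme Q synthesis and *Triap1* a mitochondrial protein that moves phospholipids together with PRELI-type proteins. *Srsf9* encodes an SR splicing factor, *Rnf10* a RING ubiquitin ligase of the small ribosomal subunit, *Dynll1* an LC8 light chain found in cytoplasmic dynein and *Pxn* the focal adhesion adaptor paxillin.

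By RefSeq coordinates (assembly GRCm38.p6, which mm10 is built on), the stretch runs from the first base of *Sppl3* to the last of *Rab35*, chr5:115011524-115647158. It measures 635.6 kb, and 22 of its 24 genes in the tables passed the filter on low counts, the 10 named genes among them. The remaining 2 are the microRNA genes *Mir7029* and *Mir7030*, with between 0 and 6 counts per library. Tested genes stood at 34.6 per Mb here, against 16 per Mb in the 2 Mb before the stretch and 7 per Mb in the 2 Mb after it. *Sppl3*, *Coq5*, *Srsf9*, *Triap1*, *Pxn* and *Rab35* run along the forward strand, and *Unc119b*, *Mlec*, *Rnf10* and *Dynll1* along the reverse strand. *Triap1* starts 70 bases from *Gatc*, which runs the other way, and *Rab35* starts 88 bases from *1110006O24Rik*, so both pairs start from a shared stretch of DNA. *Gatc* overlaps the end of *Srsf9* by 602 bases on the opposite strand, and *Coq5* and *Dynll1* end 136 bases apart while pointing at each other.

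Upstream sequences are shown for the genes at either end of the range of differences, *Mlec* and *Srsf9*, and for the 2 shared starts, since the question for a run of genes that differ together is whether their starts look alike. Each sequence comes from RefSeq (GRCm38.p6), is read 5′ to 3′ along the strand of the named gene, and stops before the first annotated base of any gene. Capitals mark the letters of a GC box (GGGCGG or its complement) or a CCAAT box (CCAAT or its complement).
Mlec, chr5:115158180-115158426, reverse strand: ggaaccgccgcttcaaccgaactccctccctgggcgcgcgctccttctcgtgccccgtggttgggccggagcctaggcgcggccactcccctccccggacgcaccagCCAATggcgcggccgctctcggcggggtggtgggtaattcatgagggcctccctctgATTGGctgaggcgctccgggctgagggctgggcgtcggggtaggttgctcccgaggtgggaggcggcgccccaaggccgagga
Srsf9, chr5:115326927-115327162, forward strand: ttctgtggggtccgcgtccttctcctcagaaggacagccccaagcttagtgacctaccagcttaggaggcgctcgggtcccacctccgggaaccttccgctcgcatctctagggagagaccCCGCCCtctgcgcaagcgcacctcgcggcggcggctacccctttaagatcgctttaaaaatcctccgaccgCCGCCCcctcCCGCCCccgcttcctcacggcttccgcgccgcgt
Triap1 and Gatc, chr5:115341179-115341224, forward strand: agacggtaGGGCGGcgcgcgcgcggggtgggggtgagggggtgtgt
Rab35 and 1110006O24Rik, chr5:115631817-115631903, forward strand: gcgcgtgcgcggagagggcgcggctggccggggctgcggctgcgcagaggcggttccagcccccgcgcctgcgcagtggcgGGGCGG

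The sequence before *Mlec* holds 2 CCAAT boxes, 1 on each strand, and no GC box, and that before *Srsf9* holds 3 GC boxes, all on the opposite strand, and no CCAAT box. Each of the shared starts holds 1 GC box, within 46 bases for *Triap1* and *Gatc* and 87 bases for *Rab35* and *1110006O24Rik*. Of the 10 genes, 8 have an entry in the promoter table (*Coq5* and *Pxn* have none). In the 250 bases before the start, these 8 promoters had a median GC content of 69.2% and a median of 26 CpG sites, against 60.0% and 16 over the 10454 promoters of tested genes and 52.0% and 6 over all 27025 promoters.

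The motifs were searched on both strands from 250 bases before to 50 bases after each start. The GC box was found in 5 of the 8 promoters, those of *Unc119b*, *Dynll1*, *Srsf9*, *Triap1* and *Rab35*, and in 66.0% of the promoters of tested genes (35.9% of all promoters). The CCAAT box was found in 3, *Mlec*, *Rnf10* and *Dynll1*, against 39.2% of tested genes (37.9% of all). The letters TATAAA stood in 2, *Unc119b* and *Rnf10*, against 6.77% of tested genes (14.2% of all), and the ETS letters CCGGAA in 1, *Rab35*, against 28.2% (15.2% of all). The NRF1 letters GCATGCGC, the YY1 letters AAGATGG, the CRE letters TGACGTCA and the E-box CACGTG were in none of the 8, and in 5.61%, 7.31%, 3.34% and 10.5% of tested genes. No motif was found in all 8 promoters. These are matches of letters and not sites shown to be bound.

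All 10 genes were higher than wild type in each of the 3 clones, which is how they were selected. Of all 13267 genes tested, 28.7% were higher in all 3 clones. Their mean log2 ratios of clone to wild type ran from 0.23 for *Srsf9* to 0.69 for *Mlec*, with a median of 0.48 (quartiles 0.33 and 0.57), against a median of -0.003 over all tested genes (quartiles -0.15 and 0.15). A log2 ratio of at least 0.3 in every clone was reached by 6 of the 10 genes, and by 5.81% of all tested genes. With edgeR's quasi-likelihood test of rescue against wild type, 1 of the 13267 genes passed an adjusted p of 0.01, which is 0.00754%, and nothing is read from this for the 10 genes because the choice used that contrast.

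**Figure D1:**
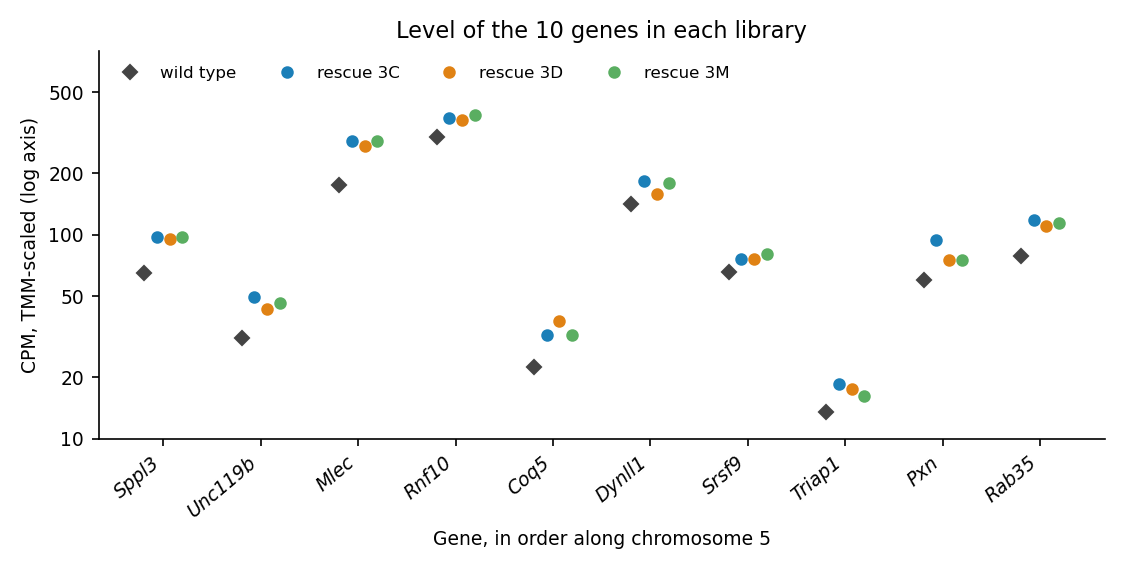
Level of each of the 10 genes (TMM-scaled CPM on a log axis) in wild-type cells (grey diamond) and in each rescue clone (coloured points), with 1 library per point and genes in order along chromosome 5. In every gene the 3 clones lie above wild type, from 13.5 against 16.2 to 18.5 CPM for *Triap1* to 301 against 367 to 387 CPM for *Rnf10*.

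Of the genes of membranes and transport, *Mlec* read 175 CPM in wild type and 287, 273 and 288 CPM in 3C, 3D and 3M, a mean of 283 ± 8.50 CPM (SD, n = 3). These rest on 3346 read pairs from wt26 and on 3872, 3969 and 4458 from the clones. Its mean log2 ratio was 0.69 ± 0.04 (SD, n = 3), and the fitted log2 fold change was 0.69 with a standard error of 0.07. Malectin binds glucosylated N-glycans on newly made proteins, and its gene had the highest mean ratio of the 10.

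*Sppl3* read 65.1 CPM in wild type and 97.7, 95.6 and 97.4 CPM in the clones. Its log2 ratios of 0.58, 0.55 and 0.58 gave 0.57 ± 0.02 (SD, n = 3), the smallest spread between clones among the 10 genes. *Unc119b* read 31.3 CPM in wild type and 49.6, 43.4 and 46.3 CPM in the clones, with a mean log2 ratio of 0.57 ± 0.10 (SD, n = 3). *Rab35*, at the far end of the stretch, read 78.9 CPM in wild type and 118, 110 and 114 CPM in the clones, with 0.53 ± 0.05 (SD, n = 3). The first and the last gene of the stretch thus differed from wild type by log2 ratios within 0.05 of each other.

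Of the mitochondrial genes, *Coq5* read 22.4 CPM in wild type and 32.3, 37.9 and 32.2 CPM in 3C, 3D and 3M. Its mean log2 ratio was 0.60 ± 0.13 (SD, n = 3), and clone 3D stood above the other two. *Triap1* had the fewest counts of the 10 genes, 258 read pairs from wild type and 250, 254 and 251 from the clones. Scaled for depth, these gave 13.5 CPM in wild type and 18.5, 17.5 and 16.2 CPM in the clones, with a mean log2 ratio of 0.36 ± 0.10 (SD, n = 3).

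The genes acting on RNA and ribosomes stood lower in this range. *Srsf9*, which encodes a regulator of splice site choice, read 65.9 CPM in wild type and 76.2, 75.9 and 80.5 CPM in the clones, with 0.23 ± 0.05 (SD, n = 3). *Rnf10*, the most abundant of the 10 genes, read 301 CPM in wild type and 376, 367 and 387 CPM in the clones, with 0.32 ± 0.04 (SD, n = 3).

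Of the genes of the cytoskeleton and adhesion, *Dynll1* read 141 CPM in wild type and 184, 159 and 179 CPM in the clones, with a mean log2 ratio of 0.30 ± 0.11 (SD, n = 3). Here clone 3D lay closest to wild type, at a log2 ratio of 0.17. *Pxn* read 60.3 CPM in wild type and 94.1, 75.2 and 75.2 CPM in the clones. Its log2 ratios of 0.64, 0.32 and 0.32 gave 0.43 ± 0.19 (SD, n = 3), the widest spread between clones of the 10 genes.

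As linear ratios with exact 95% counting intervals, which cover counting error only and not the variation between cultures, the 10 genes ran from 1.16 to 1.64 in 3C, from 1.13 to 1.69 in 3D and from 1.20 to 1.64 in 3M. Ratios above 1 are what the genes were picked for. The median over the 10 genes was 1.47 in 3C, 1.34 in 3D and 1.36 in 3M. The intervals of *Mlec* were 1.56 to 1.72, 1.48 to 1.63 and 1.57 to 1.72, and those of *Srsf9* were 1.06 to 1.26, 1.06 to 1.25 and 1.13 to 1.32, for the genes with the highest and the lowest ratio over all clones. *Triap1* in 3M had the interval nearest to 1, from 1.003 to 1.43. With the clones summed, 4 genes came to 1.48 or more, *Sppl3*, *Unc119b*, *Mlec* and *Coq5*, and 3 lay lowest, *Rnf10* at 1.25, *Dynll1* at 1.23 and *Srsf9* at 1.18.

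**Figure D2:**
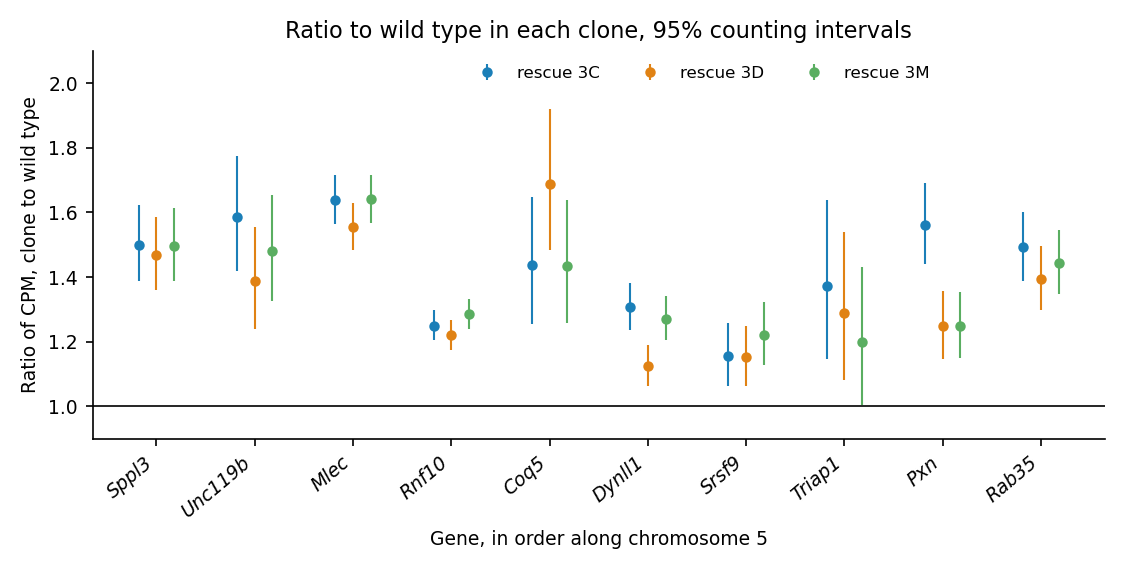
Ratio of TMM-scaled CPM in each rescue clone to the wild-type library, with exact 95% counting intervals as bars and a line at a ratio of 1. The points, of genes picked for ratios above 1, run from 1.13 for *Dynll1* in 3D to 1.69 for *Coq5* in 3D, and *Pxn* in 3C lies above 3D and 3M.

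Per kilobase of transcript, the order of levels in wild type was *Rnf10* at 86.6 CPM per kb, *Dynll1* at 63.0, *Srsf9* at 47.3, *Mlec* at 29.5, *Rab35* at 28.0, *Sppl3* at 20.3, *Pxn* at 16.0, *Triap1* at 12.4, *Coq5* at 11.02 and *Unc119b* at 8.54 CPM per kb. In the rescue clones the order was the same except that *Coq5* (16.8 ± 1.60 CPM per kb, SD, n = 3) stood above *Triap1* (16.0 ± 1.08 CPM per kb), neighbours whose means lie closer than their spread. The 3 genes at the top of this order, *Rnf10*, *Dynll1* and *Srsf9*, were also the 3 with the lowest mean log2 ratios. That is a description of 10 genes of 1 stretch, which share the same libraries.

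The 10 genes had a median transcript length of 3012 bases and a median transcript GC content of 53.1%, against 3366 bases and 50.1% over all tested genes. Their median level in wild type was 65.5 CPM, against 20.3 CPM over all tested genes, and their median gene span was 15.2 kb against 22.7 kb.

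To see whether the clones differ among themselves, each clone was tested against the other 2 with wild type left out (edgeR quasi-likelihood test with Benjamini-Hochberg adjustment over 13124 genes). The choice of genes favoured agreement of the clones in direction, so few differences among the 10 genes may follow in part from it. At an adjusted p of 0.01, 0 of the 10 genes passed for 3C, 0 for 3D and 0 for 3M, and over all genes the shares were 0%, 1.31% and 0%. At an unadjusted p under 0.05 there was 1 gene for 3C, 1 for 3D and 0 for 3M, beside 5.81%, 12.6% and 1.33% of all genes. DESeq2 and limma-voom each called 0 of the 10 genes at the same threshold.

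The gene for 3C was *Pxn*, higher than in the other 2 clones by 0.32 on the log2 scale with a standard error of 0.10 (edgeR, adjusted p = 0.655). The gene for 3D was *Dynll1*, with a difference of -0.19 and a standard error of 0.08 (edgeR, adjusted p = 0.302). *Coq5* was higher in 3D by 0.23 with a standard error of 0.12 (edgeR, adjusted p = 0.487). Over all 10 genes the differences ran from -0.12 to 0.32 for 3C, from -0.19 to 0.23 for 3D and from -0.17 to 0.08 for 3M. Each test sets 1 library against 2 and assumes that the lone clone varies as the other pair does, and a p that misses the threshold does not show that the clones were alike.

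The other tested genes of the stretch number 12. Their median log2 ratio was 0.36 (0.44, 0.41 and 0.32 in 3C, 3D and 3M). Of the 12, 7 were higher in all 3 clones (58.3%, against 28.7% of all tested genes), 1 was lower in all 3 and 4 were mixed. The 10 genes were picked on this same contrast, so these 12 are the genes left over and not an independent sample of the stretch. A log2 ratio of at least 0.3 in every clone was reached by 5 of the 12 (41.7%), and by 5.81% of all tested genes.

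The highest of them were *Cox6a1*, a subunit of cytochrome c oxidase, and *Gatc*, a subunit of the mitochondrial glutamyl-tRNA amidotransferase. *Cox6a1* read 87.4 CPM in wild type and 136, 143 and 135 CPM in the clones, with a mean log2 ratio of 0.66 ± 0.05 (SD, n = 3). *Gatc* read 10.2 CPM in wild type and 14.8, 15.6 and 18.3 CPM in the clones, with 0.65 ± 0.16 (SD, n = 3). Both lie beside *Triap1*, and *Gatc*, which starts from the same short stretch of DNA, had the higher mean ratio of that pair. The *Gatc* values come from the strand opposite to *Srsf9*, whose end it overlaps, and the reads there were told apart by strand.

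The lowest were *Gm13826*, a copy of a ribosomal protein gene, and *Pla2g1b*, a secreted phospholipase. Read pairs that also map to another copy are not counted, and what this does to the *Gm13826* counts was not tested. *Gm13826* read 10.3 CPM in wild type and 8.23, 7.15 and 7.88 CPM in 3C, 3D and 3M, and its mean log2 ratio was -0.40 ± 0.10 (SD, n = 3). *Pla2g1b* read 27.7 CPM in wild type and 21.0, 36.2 and 25.6 CPM in the clones, with 3D above wild type and the others below it. *1110006O24Rik*, which shares its start with *Rab35*, had only 13 read pairs in wild type and 9, 14 and 19 in 3C, 3D and 3M, too few to set beside *Rab35*. The higher levels therefore did not extend to every tested gene between *Sppl3* and *Rab35*.

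Outside the stretch, the 32 tested genes of the 2 Mb before it had a median log2 ratio of -0.01, and the 14 of the 2 Mb after it a median of -0.19. Over both flanks 10 of 46 genes were higher in all 3 clones, which is 21.7%, against 28.7% of all tested genes. Over all 816 tested genes of chromosome 5 outside the stretch, the flanks included, the share was 25%, with a median log2 ratio of -0.03. The rest of the chromosome thus stood near the median of all genes.

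Of the tested genes nearest before *Sppl3*, *2210016L21Rik* and *Oasl1* had mean log2 ratios of 0.49 and -0.03. *2210016L21Rik* read 20.8 CPM in wild type and 29.2, 29.7 and 28.9 CPM in the clones, all above wild type, while the clones lay on both sides of wild type for *Oasl1*. The nearest after *Rab35* were *Ccdc64*, *Cit* and *Prkab1*, with mean log2 ratios of -0.19, 0.11 and 0.24. *Ccdc64*, a reverse-strand gene whose end lies just past that of *Rab35*, read 7.71 CPM in wild type and 7.42, 5.70 and 7.29 CPM in the clones, below wild type in each.

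The edges of the run were then looked at after its values were seen, so the following is a description of where they lie. *Ankrd13a*, which encodes a ubiquitin-binding protein of endocytosis and was singled out after its values were seen, begins at -236.6 kb relative to the *Sppl3* start. It read 108 CPM in wild type and 189, 184 and 175 CPM in the clones, with a mean log2 ratio of 0.75, above any of the 10 genes. From *Ankrd13a* to *Rab35* lie 28 tested genes over 872.2 kb, with a median log2 ratio of 0.39. Of these, 21 were higher in all 3 clones and 1 was lower in all 3, against 28.7% higher among all tested genes. The 28 include the 10 genes picked for being higher and begin at a gene picked for its value. This count therefore follows in part from the choice. The 10 tested genes before *Ankrd13a* had a median of -0.004, with 2 higher in all 3 clones, and the 10 after *Rab35* a median of -0.16, with 1 higher in all 3 clones. The run therefore began before *Sppl3*, and its end lay near *Rab35*.

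**Figure D3:**
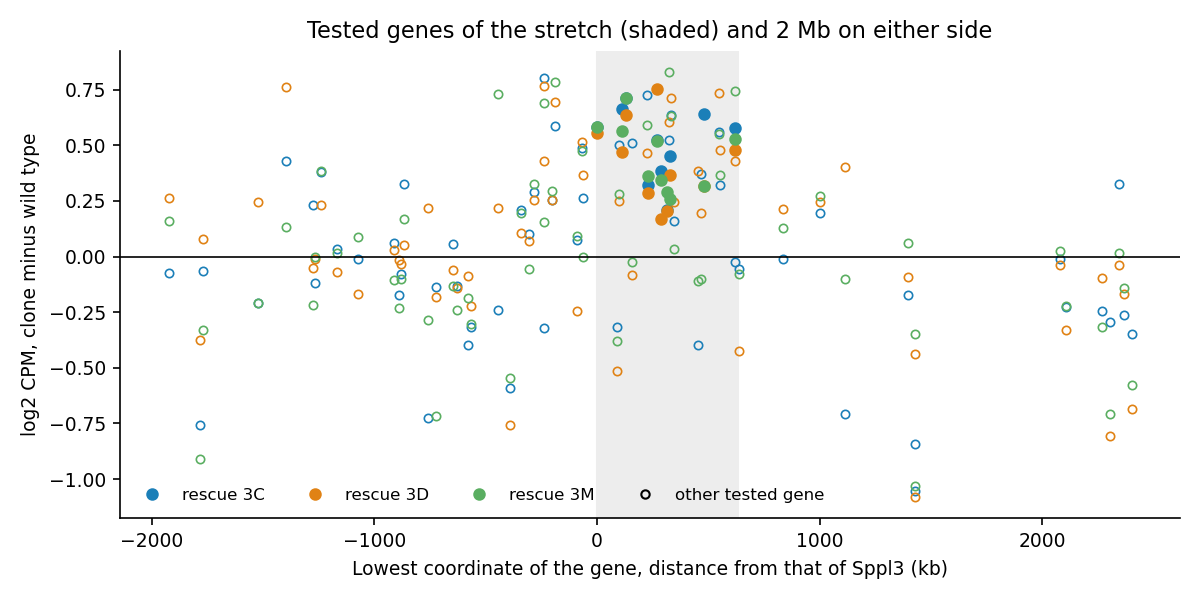
Difference in log2 CPM between each rescue clone and wild type for every tested gene of the stretch (shaded) and of 2 Mb on either side, against the distance in kb of the gene's lowest coordinate, whatever its strand, from that of *Sppl3*. Filled points are the 10 named genes, all above 0, and open points are other genes, which have a median of 0.36 inside the stretch and of -0.04 over both sides.

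To set each gene beside genes of its own function, 10 lists of relatives and partners located outside the stretch were examined. Some of these genes also lie on chromosome 5. Together they hold 109 tested genes, with a median log2 ratio of -0.002, of which 37 were higher in all 3 clones, or 33.9%. Without 3 genes on chromosomes 13 and 14 the median was -0.006 and the share 32.1%. The medians of the lists ran from -0.07 to 0.07. The genes of the stretch were picked for being higher than wild type, so where they stand beside their lists follows from that choice and is no result.

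Of the partners of *Mlec*, the genes of oligosaccharyltransferase, the glucosidases and the calnexin cycle, 11 of 17 (64.7%, against 28.7% of all tested genes) were higher in all 3 clones and 4 lower, with a median log2 ratio of 0.07. They ran from -0.24 for *Tmem258* to 0.47 for *Dad1*, both oligosaccharyltransferase subunits, and *Dad1* lies on chromosome 14. The 2 tested relatives of *Sppl3* were *Sppl2a* at -0.04 and *Sppl2b* at 0.14. The cargo transport genes beside *Unc119b* had a median of -0.05 over 5 genes, from *Arl3*, the GTPase that releases its cargo, at -0.54 to *Pde6d* at 0.28. Of the 18 endocytic recycling genes beside *Rab35*, 5 were higher in all 3 clones (27.8%, near the 28.7% of all tested genes) and 4 lower. They ran from *Micall2* at -0.54 to *Dennd1b* at 0.27, a gene whose protein activates Rab35.

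The 10 coenzyme Q genes beside *Coq5* had a median of -0.07, from *Coq10a* at -0.19 to *Coq2* at 0.19. Of these, 2 were higher in all 3 clones (20%, against 28.7% of all tested genes) and 3 lower. The 8 lipid transfer and related genes beside *Triap1* had a median of -0.05, from *Slmo1* at -0.95 to *Prelid1* at 0.59. *Prelid1*, whose protein works with Triap1, stood above *Triap1* and lies on chromosome 13.

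Of the SR splicing factors beside *Srsf9*, 4 of 14 were higher in all 3 clones (28.6%, near the 28.7% of all tested genes) and 3 lower. They ran from *Srsf12* at -1.28 to *Tra2a* at 0.17. The 5 genes beside *Rnf10* ran from *G3bp1* at -0.10 to *Rps2* at -0.002, with 0 higher (0%) and 4 lower in all 3 clones. The 13 dynein genes beside *Dynll1* had a median of 0.005, from *Dynll2*, which encodes the other LC8 light chain, at -0.35 to *Dynlrb1* at 0.19. The 17 focal adhesion genes beside *Pxn* had a median of 0.07, from *Zyx* at -0.20 to *Parva* at 0.54, and 2 of them stood above *Pxn*. One gene of this list, *Git2* at 0.29, lies on chromosome 5 just before *Ankrd13a*.

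**Figure D4:**
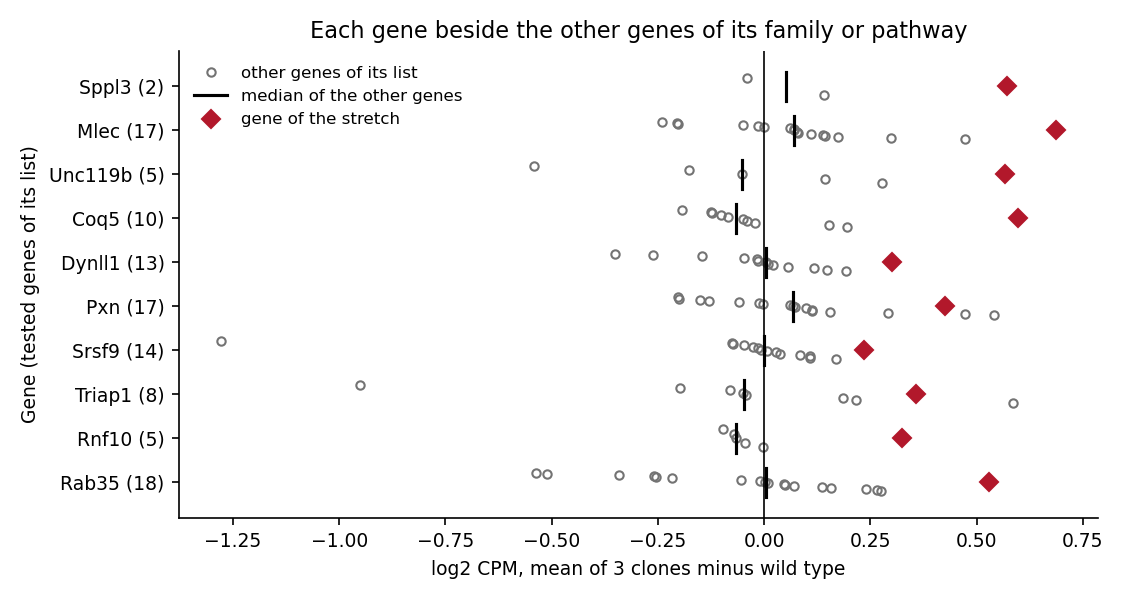
Mean difference in log2 CPM between the 3 rescue clones and wild type for each gene of the stretch (red diamond) and for the tested genes of its family or pathway (grey circles), with the median of those genes as a black line. The number of tested genes stands beside each name, and the medians run from -0.07 for the lists of *Coq5* and *Rnf10* to 0.07 for those of *Mlec* and *Pxn*. The diamonds were picked for being higher than wild type, so their place to the right of 0 follows from the choice.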

How the data were processed

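The authors aligned 50-base read pairs to mm10 with STAR and deposited, for each library, raw, unnormalized gene counts of read pairs that map once, in an unstranded column and 1 column per strand. The annotation that supplied the genes was not given in the sources used here. Since the kit is directional, the reverse-strand counts were used, and forward-strand counts came to between 1.26% and 1.31% of them. Rows that name no gene stayed out of library sizes and tests: unmapped pairs were 14.5% of all pairs for wt26 and 21.0% to 23.0% for the clones, unassigned ones between 23.6% and 24.7%, multimapping ones between 7.85% and 8.21% and ambiguous ones between 0.264% and 0.329%. Copies that share reads lose those that map to several places.

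Counts were filtered with filterByExpr, scaled by TMM and fitted by edgeR 4.0.16 in R 4.3.3 (functions glmQLFit and glmQLFTest), at the study's adjusted p of 0.01. Log2 ratios are differences in log2 CPM with a prior count of 2. DESeq2 1.42.0 and limma 3.58.1 (voom) were alternatives, beside other scalings, filters, strand columns and prior counts, a trend on length and GC content, and each clone left out. The fits were tested on simulated counts. Ratio intervals are exact 95% binomial ones and cover counting error only. Wild type is 1 library, so p-values rest on the spread between clones, which is 11.3% (coefficient of variation). The chi-square statistic per gene was between 7.17 and 10.8 between clones, so none was a copy of another.

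Positions came from RefSeq (GRCm38.p6), where 22539 symbols matched directly, 1351 by a synonym and 164 did not, and transcript lengths from GENCODE. The genes of the stretch and the lists were chosen with earlier results of these data known. Named are all 10 genes, the 2 highest and 2 lowest other genes of the stretch and those that overlap a member or share its start, the 3 nearest on either side (1 is not reported here), and the ends of each list. Other libraries of the study were not analysed here.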

Additional observations from a re-analysis of the deposited data

How the results depend on the processing

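No paired analysis was possible because there is a single wild-type library and the clone numbers only name the clones. All 10 genes were higher than wild type in every clone, the direction they were picked for, under each scaling, centring, filter, strand column and prior count tried, with the length and GC trend removed, and with each clone left out. Their median log2 ratio kept its direction and ran from 0.41 to 0.50 when 1 clone was left out. The flanking genes' median of -0.04 became -0.0058 when centred on chromosome 5 and turned to 0.0081 with the length and GC trend removed, values within 0.05 of 0, and the cause was not tested. Of 208 recomputed values, 189 stayed the same, 18 moved and 1 reversed. Of these, 110 are ratios of single genes among the 10, picked on this contrast, of which 107 stayed the same and 3 moved. Of the other 98 values, 82 stayed the same, 15 moved and 1 reversed.

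The counts of genes called over the whole table depended on the setting. For rescue against wild type, edgeR called 1 gene, DESeq2 65, limma-voom 0, edgeR's legacy method 0, and the filter of 10 counts 0. Leaving out 1 clone gave between 0 and 420, with 420 without 3D and 0 without 3M. For 3C and 3M, DESeq2 called 7 and 3 genes where edgeR called 0. For 3D, edgeR called 172, against 411 at an adjusted p of 0.05, 50 with DESeq2, 67 with limma-voom, 3 with no low-count filter and 5 with the unstranded column. The ETS letters were found in 0 promoters, in place of 1, when only the 250 bases before the start were searched.

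The single wild-type library limits every ratio, and its own variation between cultures is unknown. *Triap1* had the fewest read pairs of the 10 genes, between 250 and 258 per library, and some other named genes, such as *Oasl1* and *1110006O24Rik*, had under 20.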
